A study of Mus musculus with 9 samples.

Results

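The genes described here are desaturases and elongases grouped with liver polyunsaturated fatty acid (PUFA) synthesis, although Fads3 and Elovl1 act on other lipids. All were chosen by symbol, as Fads1, Fads2, Fads3, Elovl1, Elovl2, Elovl3 and Elovl5. Of these 7 symbols, 6 were matched among the 19686 genes of the count table and Elovl3 was not analysed here. All 6 matched genes passed the filter on low counts in each of the 3 comparisons.

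Liver RNA of male Wistar rats was sequenced after poly(A) selection in 9 libraries, with 3 each in the control, model and DSS groups. The control rats drank purified water and were gavaged with saline. The model rats drank 15% fructose and were gavaged with saline, and the DSS rats drank 15% fructose and were gavaged with an extract of Danggui-Shaoyao-San (DSS), a Chinese herbal formula, at 1.8 g/kg. All groups were treated for 8 weeks and fasted before they were killed. By its methods the study sequenced livers of a single extract group, HME, which received an aqueous methanol extract. The libraries labelled DSS were therefore taken to be HME, and the labels' name DSS is kept here. The age of the rats is not given in the sources used here. Although the labels give the mouse as organism, they also give the strain as Wistar rat and the table carries rat Ensembl identifiers, and the data were treated as rat. Fructose in the drink is a dietary model of metabolic syndrome, and no rat without fructose received the extract among these libraries.

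PUFA synthesis starts from linoleic and alpha-linolenic acid, which the rat must eat. In the endoplasmic reticulum, desaturases insert double bonds and elongases start the cycle that adds carbon units, so that arachidonic acid and docosahexaenoic acid (DHA) are formed. The liver is the main site of this synthesis, and the transcription factors SREBP-1c and PPARα are known to raise transcription of its desaturases. Fads2 encodes the delta-6 desaturase, which carries out the first step, and Fads1 the delta-5 desaturase, which makes arachidonic and eicosapentaenoic acid. Fads3 encodes a desaturase that acts on sphingoid bases. Elovl5 and Elovl2 encode PUFA elongases, Elovl2 being needed for DHA, and Elovl1 encodes an elongase of saturated and monounsaturated very long chains.

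The libraries held 14345819 to 26837227 counted reads each. The 8 hepatocyte markers summed to 143053 to 180598 CPM (reads of a gene as a part of all counted reads, scaled by TMM over the 9 libraries) in control, 181706 to 231252 in model and 178146 to 224619 in DSS. The model range lay just above the control range. The summed ranges of the leukocyte and Kupffer cell (235 to 529.8 in control, 175 to 378 in model, 250.5 to 329 in DSS), endothelial (134 to 217, 84.0 to 253, 135 to 189), stellate (261 to 295, 192 to 296, 247 to 357), bile duct (16.3 to 23.3, 15.1 to 33.3, 21.6 to 23.2), red blood cell (116 to 539, 121 to 247, 162 to 216) and intestine markers (0.199 to 1.33, 0.449 to 1.29, 0.379 to 1.30 CPM) overlapped between control and model and between control and DSS. The pancreas list summed to 13.0 to 16.3 in control, 18.5 to 28.1 in model and 16.1 to 26.6 in DSS, with 2 of 5 markers matched. The adipocyte list summed to 52.8 to 67.9, 65.1 to 82.9 and 50.9 to 67.2, with 2 of 5 matched, and the proliferating cell list to 3.09 to 6.46, 5.55 to 12.0 and 0.921 to 3.95. No matched marker was at 0 in every library. The 14 clock genes, which bear on the hour of killing, summed to 399.5 to 422 in control, 251 to 448 in model and 392 to 466 in DSS. Of the 13 tested, 9 had an unadjusted p below 0.05 in model against control (13.2% of all genes did). In DSS against model 4 did (8.02% of all genes), and in DSS against control 9 (24.3%). With a log2 fold change of 0.5, edgeR called 1, 0 and 3 of them in that order at an FDR of 0.01, and 2, 0 and 6 at 0.05. Of all genes, 0.0801%, 0.136% and 1.48% were called at 0.01. At 0.05 the shares of all genes were 0.296%, 0.12% and 3.07% higher and 0.304%, 0.336% and 3.29% lower. The part of these markers in the results below was not tested. In whole liver, fewer cells of a type and less RNA per cell cannot be told apart. The labels do not say whether each library is a separate rat, so p-values measure the spread between these samples.

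Fads1 was lower in both fructose-fed groups than in control, and none of the other 5 genes passed an adjusted p of 0.05 in edgeR or DESeq2 in any comparison. Fads1 (ENSRNOG00000020480) was at 1222, 1201 and 618 CPM in control, at 313, 277 and 381 CPM in model and at 355, 396 and 477 CPM in DSS. All 3 control libraries lay above all 6 libraries of fructose-fed rats, and the third control library lay far below the other two. The means were 1014 ± 343, 323 ± 52.9 and 409 ± 61.9 CPM (SD, n = 3 per group). Fads1 was 3.14-fold lower in model than in control (log2 fold change -1.65, SE 0.272, 95% interval -2.27 to -1.03), with a Benjamini-Hochberg FDR of 0.0436 in the edgeR quasi-likelihood test. It was 2.49-fold lower in DSS than in control (log2 fold change -1.31, SE 0.259, interval -1.91 to -0.71, edgeR FDR 0.0268). Both differences passed an FDR of 0.05, and neither passed the study's threshold of 0.01 together with an absolute log2 fold change of 0.5. DESeq2 on the same genes gave an FDR of 3.87e-07 for model and 3.62e-06 for DSS against control. Over all alternatives the Fads1 FDR ran from 3.87e-07 to 0.186 and from 3.62e-06 to 0.0963, and its direction did not turn in any of them. These comparisons share the control libraries, so they are not independent of each other.

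Single libraries moved the Fads1 call. Without control replicate 3, the low control library, the log2 fold change was -1.90 (edgeR FDR 0.0205) in model and -1.57 (FDR 0.0021) in DSS against control, and the latter passed the threshold of 0.01. Without any other single library the edgeR FDR was between 0.0872 and 0.155 in model against control, above 0.05 whichever of control replicates 1 and 2 or the 3 model libraries was left out. In DSS against control it was 0.05 without DSS replicate 3 and between 0.0824 and 0.0956 without control replicate 1, control replicate 2, DSS replicate 1 or DSS replicate 2.

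**Figure D1:**
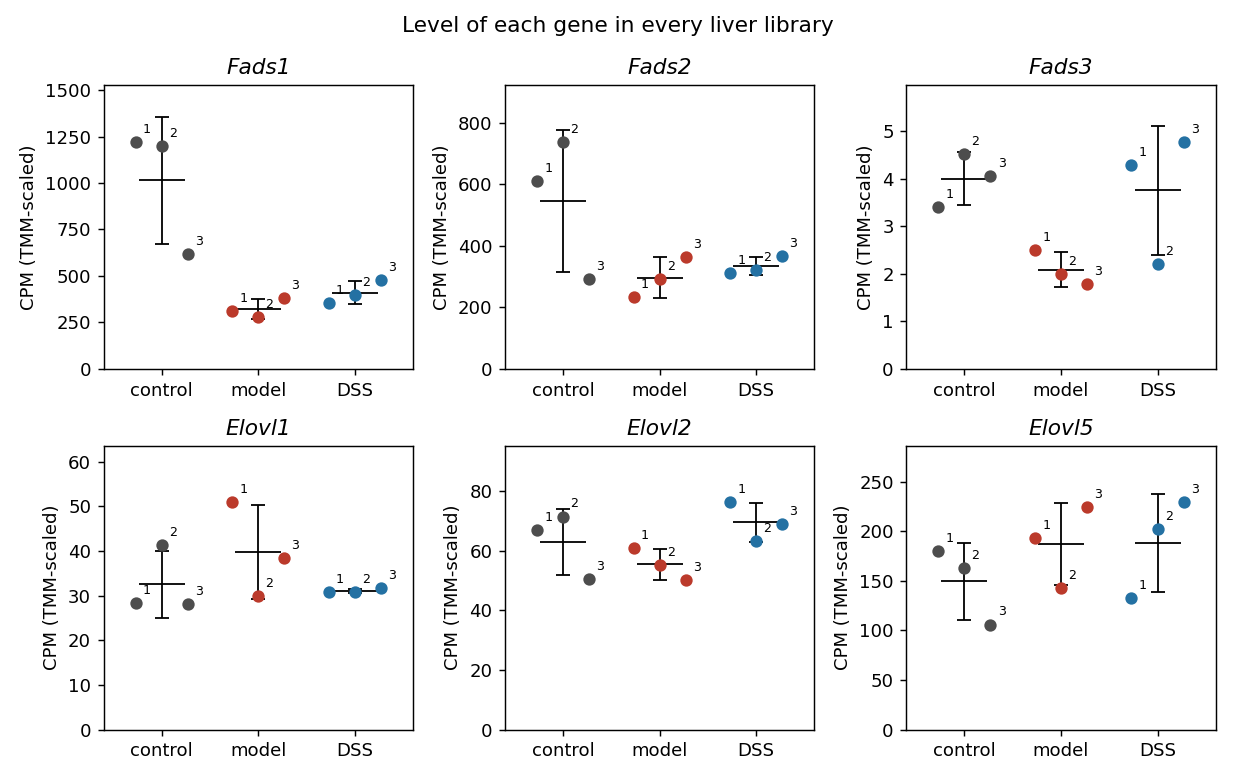
Level of each matched gene in each liver library, in CPM scaled by TMM on a linear axis from 0, by group (control, model, DSS). Points are libraries with their replicate number, and bars are the mean ± SD of 3 libraries. Fads1 in control (618 to 1222 CPM) lies above model (277 to 381) and DSS (355 to 477), while Elovl5 ranges overlap across all groups.

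Fads1 did not differ detectably between DSS and model. The log2 fold change was 0.34 (SE 0.177, interval -0.06 to 0.75, edgeR FDR 0.716), and the model range of 277 to 381 CPM overlapped the DSS range of 355 to 477 CPM. All DSS libraries stayed below the lowest control library, at 618 CPM.

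Fads2 (ENSRNOG00000020440) was at 610.4, 739 and 291 CPM in control, at 234, 293 and 365 CPM in model and at 313, 321 and 366 CPM in DSS. Control replicates 1 and 2 lay above every other library, but control replicate 3 lay inside the model range and below all DSS libraries. The means were 547 ± 231, 297 ± 65.8 and 334 ± 28.8 CPM (SD, n = 3). The log2 fold change was -0.88 (SE 0.326, interval -1.63 to -0.13, unadjusted p = 0.0265 and FDR 0.302 in edgeR) in model and -0.72 (SE 0.315, interval -1.47 to 0.03, FDR 0.219) in DSS against control. DSS and model differed by 0.17 (interval -0.25 to 0.59, FDR 0.876). The control library of low Fads1 was thus the control library of low Fads2. Without it the values were -1.18 (edgeR FDR 0.131) in model and -1.02 (FDR 0.0119) in DSS against control, and without control replicate 2 they were -0.60 and -0.43.

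Fads3 (ENSRNOG00000020385) had few reads, with 29 to 92 counts per library, the fewest of the 6 genes, so counting error weighs most on its values. It was at 3.41, 4.52 and 4.05 CPM in control, at 2.50, 1.99 and 1.79 CPM in model and at 4.28, 2.21 and 4.78 CPM in DSS. All model libraries were below all control libraries, and DSS replicate 2 was inside the model range. The log2 fold change was -0.92 in model against control (SE 0.267, interval -1.54 to -0.31, unadjusted p = 0.00792 and FDR 0.183 in edgeR) and 0.84 in DSS against model (SE 0.341, interval 0.06 to 1.63, unadjusted p = 0.0381 and FDR 0.582). In DSS against control it was -0.09 (interval -0.75 to 0.57, FDR 0.889). None of these passed an FDR of 0.05. The DSS to model value was 1.11 without DSS replicate 2, 0.73 without DSS replicate 1 and 0.64 without DSS replicate 3.

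Elovl5 (ENSRNOG00000006331), which elongates the product of the delta-6 desaturase, was at 179.6, 163 and 106 CPM in control, at 193, 143 and 224 CPM in model and at 133, 202 and 229 CPM in DSS. The 3 ranges overlapped, and the lowest library was again control replicate 3. The log2 fold change was 0.32 in model (SE 0.236, interval -0.22 to 0.86, edgeR FDR 0.603) and 0.33 in DSS against control (SE 0.249, interval -0.26 to 0.91, FDR 0.472). Between DSS and model it was 0.01 (interval -0.53 to 0.56, FDR 0.993), and its sign turned when model replicate 2, DSS replicate 2 or DSS replicate 3 was left out.

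Elovl2 (ENSRNOG00000014702) was at 66.9, 71.4 and 50.5 CPM in control, at 60.8, 55.1 and 50.2 CPM in model and at 76.1, 63.3 and 68.8 CPM in DSS. Every DSS library lay above every model library, and the control range overlapped both. The DSS to model log2 fold change was 0.33 (SE 0.135, interval 0.02 to 0.64), with an unadjusted p of 0.0387 and an FDR of 0.583 in edgeR. Model differed from control by -0.19 (interval -0.56 to 0.18, FDR 0.667) and DSS from control by 0.13 (interval -0.18 to 0.45, FDR 0.605). These intervals exclude a change of 1 on the log2 scale in either direction.

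Elovl1 (ENSRNOG00000028448) was at 28.4, 41.3 and 28.1 CPM in control, at 50.9, 30.0 and 38.4 CPM in model and at 30.9, 30.8 and 31.7 CPM in DSS. The DSS libraries lay close together (31.1 ± 0.518 CPM, SD, n = 3), but less so when scaled by library size alone (30.2 ± 1.24), and the model libraries ranged over 30.0 to 50.9 CPM. The log2 fold change was 0.29 (interval -0.25 to 0.82, edgeR FDR 0.644) in model against control, -0.35 (interval -0.79 to 0.10, FDR 0.744) in DSS against model and -0.07 (interval -0.42 to 0.28, FDR 0.818) in DSS against control. Model replicate 1 was the highest library, and without it the values were 0.05 in model against control and -0.13 in DSS against model. The groups overlapped in each comparison.

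**Figure D2:**
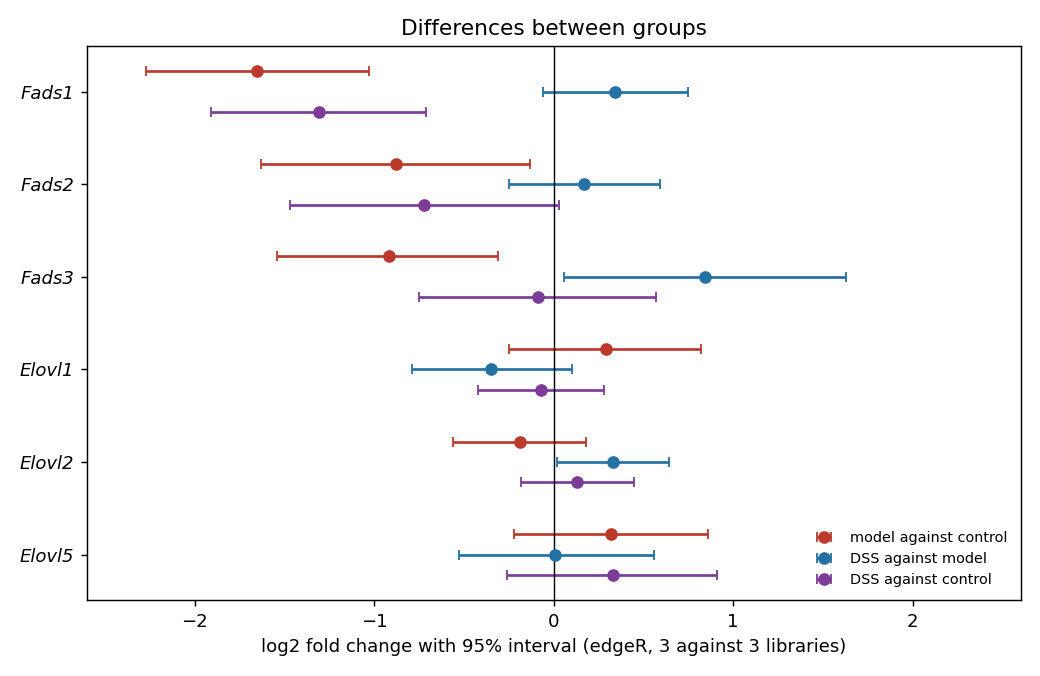
Log2 fold change of each gene in each of the 3 comparisons, with its 95% interval from edgeR (3 against 3 libraries), on a horizontal log2 axis with 0 as no difference. Both Fads1 intervals against control lie below 0 (-2.27 to -1.03 for model and -1.91 to -0.71 for DSS), and the Elovl1 and Elovl5 intervals all span 0.

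Counted over the 6 genes, 0 were called in any comparison at an FDR of 0.01 and an absolute log2 fold change of 0.5 in edgeR. At these thresholds 0.0801% of all tested genes were called in model against control, 0.136% in DSS against model and 1.48% in DSS against control, so few calls are made of any gene. At an FDR of 0.05, Fads1 alone was called lower in model and in DSS against control and none was called in DSS against model. Of all genes, 0.304% were called lower and 0.296% higher in model against control at that level, 0.336% and 0.12% in DSS against model, and 3.29% and 3.07% in DSS against control. An unadjusted p below 0.05 was reached by 3 of the 6 genes (Fads1, Fads2 and Fads3) in model against control, by Fads3 and Elovl2 in DSS against model and by Fads1 in DSS against control. The corresponding shares of all genes were 13.2%, 8.02% and 24.3%. DESeq2 called Fads1 in both comparisons with control and none in DSS against model, against 2.05%, 6.09% and 1.18% of all genes in that order.

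Groups did not overlap for Fads1 and Fads3, both lower, in model against control, where 9.86% of all tested genes were lower without overlap and 11.2% were higher. In DSS against model the groups did not overlap for Elovl2 alone, which was higher, against 6.22% of all genes higher and 7.69% lower. In DSS against control they did not overlap for Fads1 alone, which was lower, against 14.9% lower and 15.1% higher. The median log2 fold change of the 6 genes was -0.53, 0.25 and -0.08 in the 3 comparisons, beside 0.00, 0.00 and -0.01 over all tested genes. In model against control the 3 desaturases had log2 fold changes of -1.65, -0.88 and -0.92 and the 3 elongases 0.29, -0.19 and 0.32, and the difference between the gene classes was not tested.

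Since Fads2 and Fads1 carry out successive desaturations, the counts of the pair were set against each other within each library, where no scaling between libraries enters. The log2 ratio of Fads2 to Fads1 counts was -1.0, -0.70 and -1.08 in control, -0.42, 0.08 and -0.06 in model and -0.18, -0.30 and -0.38 in DSS. In linear terms Fads2 had 0.472 to 0.615 counts for each Fads1 count in control, 0.746 to 1.06 in model and 0.769 to 0.881 in DSS. Control replicate 3, which was low for both genes, kept the ratio of the other control libraries, and all control ratios were below all others. The log2 ratio of Elovl5 to Elovl2 was 1.43, 1.19 and 1.07 in control, 1.67, 1.37 and 2.16 in model and 0.81, 1.67 and 1.74 in DSS, with overlap between all groups. Gene length was not accounted for, so the ratios compare libraries and not the amounts of the transcripts. They are descriptions with no test.

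**Figure D3:**
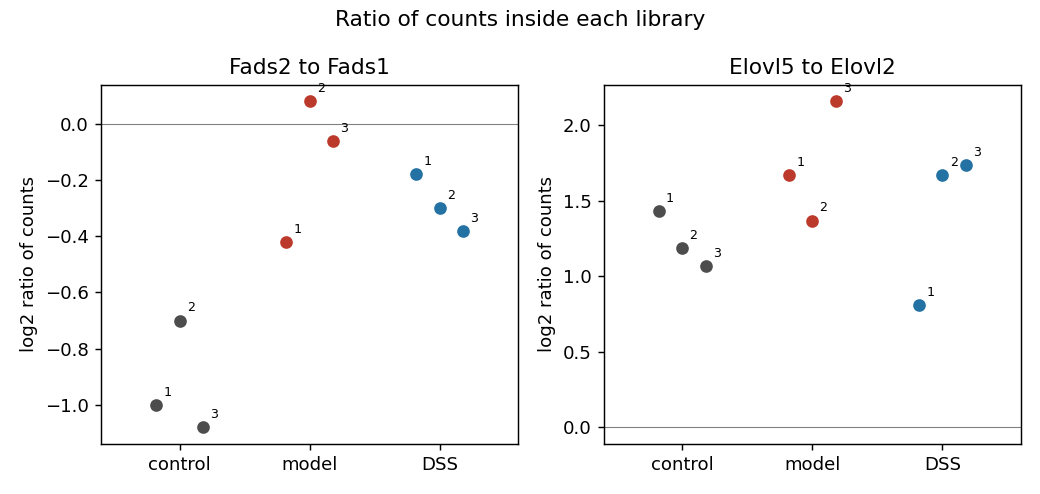
Log2 ratio of the raw counts of Fads2 to Fads1 (left) and of Elovl5 to Elovl2 (right) in each library, by group, with replicate numbers beside the points. The Fads2 to Fads1 ratio in control (-1.08 to -0.70) is below that in model (-0.42 to 0.08) and DSS (-0.38 to -0.18), and the Elovl5 to Elovl2 ranges overlap.

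The genes most like each member were taken as the 3 with the highest Pearson correlation of log2(CPM + 1) over the 9 libraries, among 7083 other genes with a mean of at least 10 CPM. For Fads1 they were Desi1 (r = 0.970), Spart (0.958) and Jup (0.956), and for Fads2 Jup (0.932), Ptprd (0.924) and Aco1 (0.921). Jup, which encodes the junction protein plakoglobin, stood on both lists. For Elovl5 they were Akr1c14 (0.931), Ogfr (0.910) and Mgat1 (0.890), for Elovl2 Eri2 (0.889), Cnp (0.881) and Acsm3 (0.868), and for Elovl1 AABR07011996.1 (0.953), Rab5if (0.953) and Uqcc1 (0.948). Fads3 was below the level used. The libraries share groups and sequencing depth, and the highest of 7083 values is high by selection, so these are descriptions only.

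The other genes around these enzymes were taken from 8 lists by role, with 100 symbols, of which 91 were matched and 78, 78 and 79 were tested in model against control, DSS against model and DSS against control. At an FDR of 0.05 and an absolute log2 fold change of 0.5, 1 was higher and 1 lower in model against control (1.28% each), 1 was higher and 3 were lower in DSS against model (1.28% and 3.85%), and 6 were higher and 13 lower in DSS against control (7.59% and 16.5%). The shares of all tested genes were 0.296% higher and 0.304% lower, 0.12% and 0.336%, and 3.07% and 3.29% in the same order. At an FDR of 0.01 the counts were 1, 1 and 7 in edgeR and 6, 4 and 19 in DESeq2. The shares of all genes were 0.0801%, 0.136% and 1.48% in edgeR and 2.05%, 1.18% and 6.09% in DESeq2. The median log2 fold change of the lists together was -0.06, -0.01 and -0.05.

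Among the other desaturases and elongases, Scd (stearoyl-CoA desaturase, which makes monounsaturated and not polyunsaturated fatty acids) was at 8746, 13904 and 11235 CPM in control, at 8079, 9712 and 8149 CPM in model and at 104, 213 and 57.4 CPM in DSS. It was thus low in all DSS libraries alone, with a log2 fold change of -6.11 against model (edgeR FDR 0.00266) and -6.51 against control (FDR 0.00532). In model against control the value was -0.39 (FDR 0.48). Fads1 showed the other order, with its step between control and model. Scd2, a close paralog of Scd whose counts are less certain for that reason, had -0.68 in model against control (edgeR FDR 0.439) and 0.11 in DSS against model, and fell by 0.58 on the log2 scale in DSS against control (FDR 0.0378). Of the 4 genes of this list tested, edgeR at an FDR of 0.05 and DESeq2 at 0.01 called 0 in model against control, and 0 had an unadjusted p below 0.05. In DSS against model 2 had such a p, and in DSS against control 3 did (8.02% and 24.3% of all genes). Among them Fads6 was higher, by 0.66 in DSS against model (edgeR FDR 0.432) and by 0.50 in DSS against control (FDR 0.0833). Degs2, Elovl4, Elovl6, Elovl7 and Scd4 did not pass the filter on low counts.

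Desaturases take electrons from cytochrome b5 and its reductase, and 6 of 7 genes of that list were tested. Por, the cytochrome P450 reductase that can also feed cytochrome b5, was at 247, 259 and 258 CPM in control, at 71.9, 85.7 and 76.8 CPM in model and at 93.9, 97.1 and 109 CPM in DSS. It fell by 1.71 on the log2 scale in model (edgeR FDR 0.00282) and fell by 1.36 in DSS (FDR 0.000384) against control, with a DSS to model value of 0.36 (FDR 0.523). Por had the group order of Fads1, with control highest, model lowest and DSS between them in means. Cyb5r3, the main cytochrome b5 reductase, was at 394, 345 and 361 CPM in control, at 325, 225 and 269 CPM in model and at 218, 200.2 and 205 CPM in DSS. It fell by 0.83 in DSS against control (edgeR FDR 0.00425). Its model to control value was -0.43 (FDR 0.324). Cyb5b, the outer mitochondrial membrane form of cytochrome b5, had -0.41 in model against control (edgeR FDR 0.312) and fell by 0.55 in DSS against control (FDR 0.0367), where Cyb5a, the microsomal form, had 0.35. Cyb5r1 of the same list went the other way, with 0.59 in model (edgeR FDR 0.299) and 0.61 in DSS (FDR 0.0863) against control. Of the 6 genes tested, 4 were lower and 2 higher in model against control, and 3 and 3 in DSS against control.

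In the elongation cycle, Acaca (acetyl-CoA carboxylase of the cytosol, which makes the malonyl-CoA that elongases use) was at 207 ± 20.4, 171 ± 73.1 and 41.5 ± 4.22 CPM (SD, n = 3) in control, model and DSS. It fell by 2.04 on the log2 scale in DSS against model (edgeR FDR 0.0499) and fell by 2.32 against control (FDR 3.9e-05), and the model libraries spread from 88.9 to 229 CPM. Acacb, the mitochondrial form, was at 162, 201 and 116 CPM in control, at 53.3, 70.3 and 96.2 CPM in model and at 68.3, 77.9 and 64.5 CPM in DSS, below control in both fructose-fed groups. It had -1.13 in model against control (edgeR FDR 0.117, DESeq2 FDR 0.00272) and -0.05 in DSS against model, and fell by 1.19 in DSS against control (edgeR FDR 0.0101). Hacd3, a dehydratase of the cycle, had -0.22 and -0.34 and fell by 0.57 in DSS against control (FDR 0.0336). Of the 7 genes tested, edgeR at an FDR of 0.05 called 0 in model against control, 1 in DSS against model and 3 in DSS against control, each lower. The shares of all genes called lower were 0.304%, 0.336% and 3.29%. In model against control 1 had an unadjusted p below 0.05 (13.2% of all genes did). DESeq2 at an FDR of 0.01 called 1, 1 and 3 (2.05%, 1.18% and 6.09% of all genes), the first being Acacb.

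Among acyl-CoA synthetases, which activate fatty acids, Acsl5 was at 508, 653 and 327 CPM in control, at 252, 209 and 283 CPM in model and at 91.1, 118 and 118 CPM in DSS, with no overlap between any groups. It fell by 1.18 on the log2 scale in DSS against model (edgeR FDR 0.036) and fell by 2.19 against control (FDR 0.00331), and the model to control value was -1.0 (edgeR FDR 0.132, DESeq2 FDR 0.00666). Its lowest control library was control replicate 3, as for Fads1 and Fads2. Slc27a2, a very-long-chain acyl-CoA synthetase, had 0.30 in model against control and rose by 0.58 in DSS against control (edgeR FDR 0.0401).

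Of 10 phospholipid remodelling genes tested, Agpat3, an acyltransferase that takes PUFA into phospholipids, was at 25.5, 29.7 and 24.3 CPM in control, at 60.3, 52.4 and 71.8 CPM in model and at 59.0, 72.6 and 64.7 CPM in DSS. Its level was higher in all fructose-fed libraries, by 1.21 on the log2 scale in model (edgeR FDR 0.0244) and by 1.30 in DSS (FDR 0.000736) against control, with 0.09 between DSS and model (FDR 0.921). Pla2g12a, a secreted phospholipase A2, was at 3.82 ± 1.61, 3.42 ± 1.88 and 28.4 ± 9.87 CPM (SD, n = 3) and rose by 3.05 in DSS against model (FDR 0.043) and by 2.87 against control (FDR 0.0112). Lpcat3, the acyltransferase that places arachidonic acid in liver phospholipids, had values of -0.12, -0.14 and -0.26 and was called by neither edgeR nor DESeq2.

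**Figure D4:**
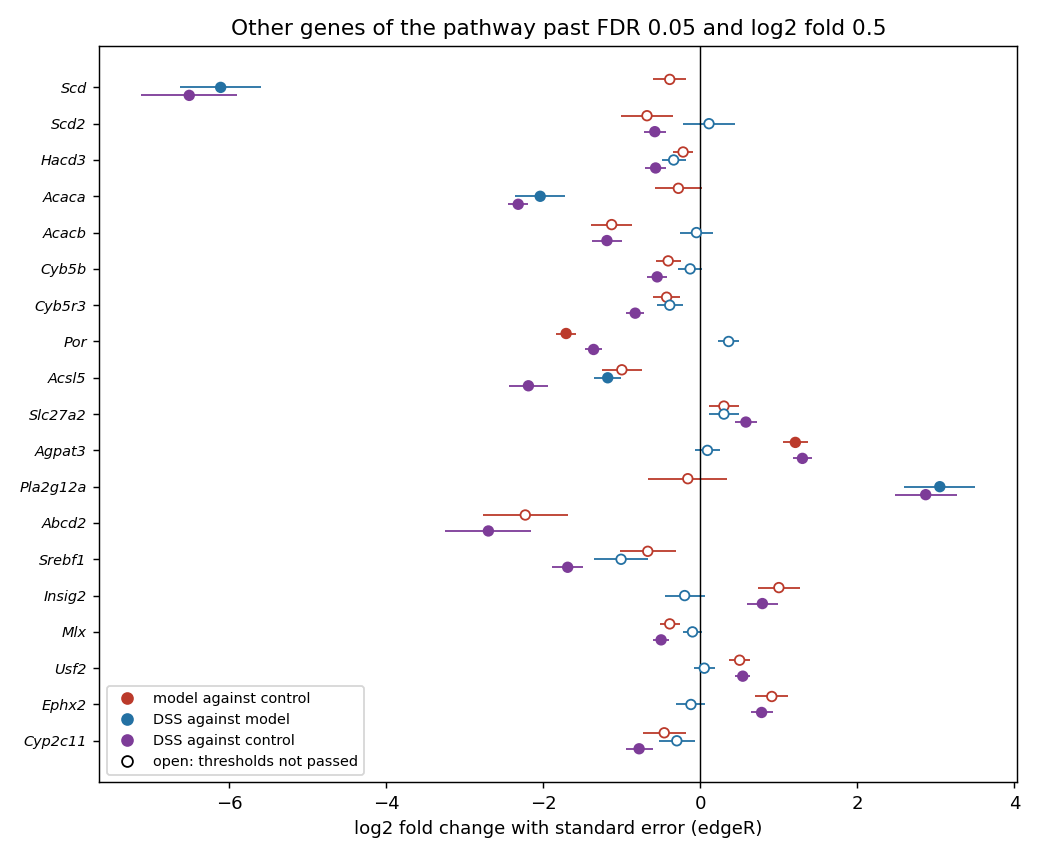
Log2 fold change with its standard error (edgeR) of the 19 other genes of the pathway that passed an FDR of 0.05 and an absolute log2 fold change of 0.5 in at least 1 comparison. Filled points passed these thresholds and open points did not. Por and Agpat3 are filled in both comparisons with control, and Scd, Acaca, Acsl5 and Pla2g12a are filled in both comparisons of DSS.

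Among the 20 regulators tested, edgeR at an FDR of 0.05 called 0 in model against control and 0 in DSS against model. It called 2 higher and 2 lower in DSS against control, 10% each (3.07% and 3.29% of all genes). An unadjusted p below 0.05 was reached by 7, 3 and 11 in the 3 comparisons (13.2%, 8.02% and 24.3% of all genes). DESeq2 at an FDR of 0.01 called 1 in model against control, Insig1 (log2 fold change -0.95, DESeq2 FDR 0.00537, edgeR FDR 0.121), 0 in DSS against model and 4 in DSS against control. Of all genes, DESeq2 called 2.05%, 1.18% and 6.09% in the same order. Srebf1, which encodes SREBP-1, was at 569, 857 and 602 CPM in control, at 456, 214 and 606 CPM in model and at 169, 219 and 243 CPM in DSS. The model libraries spanned from the DSS range into the control range. Srebf1 fell by 1.69 on the log2 scale in DSS against control (edgeR FDR 0.00244), with -0.67 in model against control (FDR 0.484) and -1.01 in DSS against model (FDR 0.489). Insig2, which holds SREBP in the endoplasmic reticulum, had 1.0 in model against control (edgeR FDR 0.161, DESeq2 FDR 0.0134) and -0.20 in DSS against model, and rose by 0.79 in DSS against control (edgeR FDR 0.0448). Usf2, a helix-loop-helix factor, had 0.50 (edgeR FDR 0.142, DESeq2 FDR 0.0497) and 0.05, and rose by 0.54 (edgeR FDR 0.012). Both were thus near the same level in model and DSS. Mlx, the partner of the carbohydrate-responsive factor ChREBP, had -0.39 and -0.10 and fell by 0.50 in DSS against control (edgeR FDR 0.0186). Ppara, which encodes the fatty acid receptor PPARα, had 0.14, 0.49 and 0.63 in model against control, DSS against model and DSS against control. For the last, the FDR was 0.102 in edgeR and 0.043 in DESeq2.

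In peroxisomal shortening, which completes DHA, edgeR called 1 of 12 genes in DSS against control at an FDR of 0.05, the transporter Abcd2. Of all genes, 3.07% were called higher and 3.29% lower in that comparison. The Abcd2 means were 1.65 CPM in control, 0.347 CPM in model and 0.248 CPM in DSS. Its counts were 29, 47 and 15 in control, 8, 7 and 4 in model and 5, 3 and 6 in DSS. Abcd2 thus passed the filter on low counts only through its control libraries, and its values carry little weight. The log2 fold change was -2.23 in model (edgeR FDR 0.122, DESeq2 FDR 0.0228) and -2.70 in DSS against control (edgeR FDR 0.0223), and DSS against model was not tested at these low counts. In the list on PUFA oxidation to signalling lipids, 13 genes were tested in DSS against control. There Ephx2, the soluble epoxide hydrolase, rose by 0.78 (edgeR FDR 0.0143). Cyp2c11, a male-specific epoxygenase of a family of close copies, fell by 0.78 (edgeR FDR 0.0304). Ephx2 had 0.91 in model against control (edgeR FDR 0.116, DESeq2 FDR 0.00658) and -0.12 in DSS against model, and Cyp2c11 had -0.46 and -0.30. In both other comparisons edgeR called 0 genes of either list at an FDR of 0.05. In model against control 1 peroxisomal and 3 oxidation genes had an unadjusted p below 0.05 (13.2% of all genes did). In DSS against model 2 and 3 did (8.02%), and in DSS against control 5 and 4 (24.3%). Of both lists, DESeq2 at an FDR of 0.01 called Ephx2 alone in model against control and 0 genes in DSS against model. In DSS against control it called Abcd2 (FDR 0.00114), Ephx2 (FDR 0.000172), Cyp2c11 (FDR 0.000492) and Cyp4a2 (FDR 0.000615). Of all genes, DESeq2 called 2.05%, 1.18% and 6.09% in model against control, DSS against model and DSS against control. Cyp4a2 had 3.74 in model (SE 0.914, edgeR FDR 0.13, DESeq2 FDR 0.0154) and 3.57 in DSS (SE 0.895, edgeR FDR 0.0909) against control. The other Cyp4a genes of the list were called by neither edgeR nor DESeq2 in any comparison.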

How the data were processed

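The authors aligned the reads to Rnor_6.0, per the submitters' processing notes, with HISAT2. Exonic reads were summed per gene by HTSeq 0.6.1, ignoring strand and with no mapping quality minimum. They deposited the whole-number counts per gene without normalization. In this mode (intersection-nonempty), reads that remain ambiguous between overlapping genes are left uncounted, and counts of overlapping genes or close copies are less certain. A table of assembled transcripts was not used, since its unit is not stated. The study named DEGseq and DESeq for its comparisons.

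Genes were matched by the symbols of the count table. The tests used edgeR 4.0.16 under R 4.3.3, with a fit of 6 libraries for each pair of groups, filterByExpr (minimum count 10), TMM, robust glmQLFit, glmQLFTest on both sides and Benjamini-Hochberg adjustment over 12486 genes for model against control, 12502 for DSS against model and 12633 for DSS against control. The study's thresholds made the calls (FDR up to 0.01, log2 fold change of 0.5 or more in size), and calls were counted also at an FDR of 0.05. The SE is the log2 fold change over the root of the F statistic. DESeq2 1.42.0, other scalings, filters, fits and left-out libraries were alternatives, and the fit was tested on simulated counts. Replicates differed by more than sampling noise, with 18.2 to 65.9 as chi-square per gene.

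Named genes are the members, every pathway gene past an FDR of 0.05 and a log2 fold change of 0.5 in any comparison, and the 3 genes most like each member. Cyb5a, Cyb5r1, Cyp4a2, Fads6, Insig1, Lpcat3 and Ppara, and the genes listed as not passing the filter, were named after their values were seen. The members and lists were chosen with earlier results of these data known. The reference at hand was of the mouse, so no rat sequence, position or length was used.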

Additional observations from a re-analysis of the deposited data

How the results depend on the processing

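Of 270 alternatives for the 6 genes in the 3 comparisons, 257 kept the side of the threshold and the direction, 6 brought Fads1 past the threshold and 7 turned a direction. At an FDR of 0.05 and with no minimum fold change the main fit was used again, so these alternatives could not turn a direction. For Fads1 the former only raised the threshold over the same FDRs of 0.0436 and 0.0268. The other genes had main FDRs of 0.183 or more, so staying uncalled says little about them. The turned values were those of differences near 0, namely Elovl5 in DSS against model without model replicate 2 (-0.15), DSS replicate 2 (-0.04) or DSS replicate 3 (-0.15; range without single libraries -0.15 to 0.20), and in DSS against control Fads3 without control replicate 2 (0.02) or DSS replicate 2 (0.19; range -0.28 to 0.19), Elovl1 without control replicate 2 (0.14; range -0.17 to 0.14) and Elovl2 with library size alone (-0.00). The cause was not tested. The number of the 6 genes called was 1 in place of 0 in model against control with no filter on low counts, with DESeq2 and at an FDR of 0.05, and 1 in DSS against control with DESeq2 and at an FDR of 0.05. Leaving out single libraries gave 0 to 0, 0 to 0 and 0 to 1 in the 3 comparisons, the 1 without control replicate 3.

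Of the other pathway genes, 1 was called in model against control, and 2 with no filter, 6 with DESeq2, 2 with all 9 libraries in 1 fit, 2 at an FDR of 0.05 and 0 to 1 without single libraries (0 without any control library or model replicate 3). In DSS against model 1 was called, 4 with DESeq2, 4 at an FDR of 0.05 and 0 to 1 without single libraries (0 without model replicate 2, model replicate 3 or DSS replicate 1). In DSS against control 7 were called, 11 with no filter, 19 with DESeq2, 19 at an FDR of 0.05 and 4 to 6 without single libraries (4 without control replicate 1 or DSS replicate 1). The Elovl1 mean in DSS was 30.2 CPM with library size alone, which shifted the median of all genes by -0.14 in both comparisons with control. Calls over all genes numbered 10, 17 and 187, and 71, 38 and 489 with no filter, 256, 147 and 769 with DESeq2, and 25, 20 and 113 with all 9 libraries in 1 fit. Without single libraries they were 0 to 10 (0 without any control library), 2 to 12 (2 without DSS replicate 1) and 86 to 132 (86 without DSS replicate 1).

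No pairing of the libraries by replicate number was seen. The correlation of same-numbered deviations was -0.26 to -0.04, -0.20 to -0.03 and -0.11 to -0.01 in the 3 comparisons. Between different numbers it ran from -0.18 to 0.26. Deviations from a mean of 3 libraries are tied to each other, so these values cannot exclude pairing. With the replicate number as a block, the pathway count in model against control was 0, calls over all genes were 0, 7 and 104, and the Fads1 FDR in edgeR was 0.186, 0.901 and 0.0963 at log2 fold changes of -1.60, 0.35 and -1.27.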
